A study of Mus musculus with 8 samples.

Results

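The cytosolic ribosomal protein genes encode the protein part of the ribosome that translates nuclear-encoded mRNA, and 88 of the 24976 genes of the deposited mouse count table were taken as members. They were chosen by symbol alone, as those beginning with Rpl or Rps and a digit together with Rplp0, Rplp1 and Rplp2. The 12 pseudogene symbols with a ps suffix and the 10 symbols of the Rps6k kinases were dropped. Of the 88 members, 54 carry a large-subunit symbol and 33 a small-subunit symbol, and 1, Rps19bp1, encodes a binding partner of Rps19 rather than a part of the ribosome. Rpsa, Fau and Rack1 are ribosomal proteins under other symbols, so they are given separately.

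A ribosome joins a small subunit, which reads the mRNA, to a large subunit, which forms the peptide bond. Most of the proteins are present in a single copy per ribosome, and most of their mRNAs begin with a cytosine and a run of pyrimidines, the 5′ terminal oligopyrimidine (TOP) motif, through which mTORC1 signalling and the RNA-binding protein Larp1 set how strongly they are translated. In T cells activation is known to raise ribosome production, and cells that stop dividing make fewer ribosomes.

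RNA was taken from CD8 T cells recovered from tumours of B16-OVA, a mouse melanoma line carrying ovalbumin, grown in Rag2-/- hosts, which lack T and B cells. Tumour cells were implanted 10 days before T cell transfer, and CD3e+CD8+ cells were sorted 10 days after transfer by the inhibitory receptors PD1 and Tim3. Each group has 2 libraries, and per the labels the cells of each implanted mouse made up a sample. The groups are dKO PD1+Tim3+, WT PD1+Tim3+, dKO PD1+Tim3- and WT PD1+Tim3-. The dKO donors carried a Cd8-driven Cre, floxed alleles of both Nr4a1 and Nr4a2, and OT-I, a transgenic T cell receptor specific for ovalbumin. Whether WT donors also carried OT-I is not in the labels, so genotype and receptor cannot be told apart here. The sources used here do not state the age of the mice.

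Total counts ran from 5256474 to 5609692 in dKO PD1+Tim3+, 5489394 to 13418762 in WT PD1+Tim3+, 1944999 to 5519221 in dKO PD1+Tim3- and 4801738 to 7828156 in WT PD1+Tim3-. Counts over a whole gene need not show a deletion of part of it, and the targeted genes did not check the labels. Nr4a1 had 1194 and 1175 CPM in dKO PD1+Tim3+ libraries, against 803 and 789 CPM in WT PD1+Tim3+, and 1331 and 1489 CPM in dKO PD1+Tim3-, against 979 and 824 CPM in WT PD1+Tim3-. Its levels were thus higher under the dKO label, at log2 fold changes of 0.57 ± 0.13 and 0.64 ± 0.13 (SE) that did not pass edgeR's test (adjusted p 0.0944 and 0.126), and Nr4a2 gave -0.05 and -0.06. CPM here are counts scaled to a common total after TMM scaling of the libraries. The marker CPM that follow in this paragraph use total counts without TMM scaling. Every genotype direction below is that of the library's label. The T cell markers Cd3d, Cd3e, Cd3g, Cd8a, Cd8b1 and Pdcd1 summed to 2706 to 4008 CPM over all libraries, and the Tim3 gene Havcr2 stood at 44.8 to 57.8 CPM in the 4 Tim3+ libraries against 2.29 to 3.62 CPM in the 4 Tim3- libraries. Summed erythroid markers (Hba-a1, Hbb-bs, Hbb-bt and Alas2) were highest in replicate 1 of dKO PD1+Tim3+, at 89.2 CPM, and stood at 22.8 in replicate 2. They ran from 4.47 to 29.9 CPM in WT PD1+Tim3+, so the 2 Tim3+ groups overlapped. The sums were 1.99 to 2.06 in dKO PD1+Tim3- and 1.67 to 5.49 in WT PD1+Tim3-. The dendritic cell list, mostly Itgax, summed to 46.9 to 56.5 CPM in dKO PD1+Tim3+, 52.5 to 55.6 in WT PD1+Tim3+, 32.9 to 33.5 in dKO PD1+Tim3- and 25.6 to 26.1 in WT PD1+Tim3-. The other marker lists for cells that a tumour sort could hold each summed to at most 37.5 CPM. The part of these cells in the results below was not tested.

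The starts of a few members are shown because the pyrimidine run at the transcript start is the sequence the family is known for. Each line gives 30 bases from 10 before to 20 after the RefSeq start in build GRCm38.p6, read 5′ to 3′ on the gene's strand, and capitals mark the longest run of C and T that touches positions -4 to 6.
Rpl15 (chr14:18270967-18270996, reverse strand): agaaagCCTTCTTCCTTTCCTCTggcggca
Rpl38 (chr11:114668570-114668599, forward strand): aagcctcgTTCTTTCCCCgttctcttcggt
Rpl22l1 (chr3:28805498-28805527, forward strand): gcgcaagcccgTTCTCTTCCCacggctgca
Rps6 (chr4:86857348-86857377, reverse strand): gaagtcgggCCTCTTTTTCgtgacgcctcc
Rps27 (chr3:90213629-90213658, reverse strand): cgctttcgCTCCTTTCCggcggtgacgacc
Rps28 (chr17:33824543-33824572, reverse strand): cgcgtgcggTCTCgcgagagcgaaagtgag
Rplp0 (chr5:115559457-115559486, forward strand): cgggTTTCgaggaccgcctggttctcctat
Rpl5 (chr5:107900518-107900547, forward strand): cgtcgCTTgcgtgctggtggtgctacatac
Rps27l (chr9:66946076-66946105, forward strand): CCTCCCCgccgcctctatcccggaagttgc
Rpl10l (chr12:66284382-66284411, reverse strand): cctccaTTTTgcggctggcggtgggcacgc
The windows differed widely, with a run of 17 bases in Rpl15, 10 in Rpl38, Rpl22l1 and Rps6, 4 in Rps28 and Rplp0, and 3 in Rpl5. RefSeq promoters were matched for 67 of the 88 members. A run of 5 or more pyrimidines was found in 35 of the 67, or 52.2%, against 31.4% of 17146 other genes of the count table and 31.1% of all 32851 promoters. The search took the gene's own strand only, and depends on the annotated start, which can lie some bases from the start the cells use.

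The ribosomal protein genes took 11.0% and 12.3% of all counts in the dKO PD1+Tim3+ libraries, 10.3% in each WT PD1+Tim3+ library, 13.7% and 12.2% in dKO PD1+Tim3- and 13.2% and 14.7% in WT PD1+Tim3-. The means were 11.7% ± 0.906, 10.3% ± 0.0186, 13.0% ± 1.02 and 14.0% ± 0.999 in that order of groups (SD, n = 2 each). The WT PD1+Tim3+ libraries were the lowest, and the WT populations did not overlap. Counting error was small beside these differences, since the widest exact binomial interval (95%), that of the shallowest library, ran from 12.2% to 12.3%. Ribosomal RNA genes Rn45s and Rn18s took 8.12% ± 0.336 of counts in dKO PD1+Tim3+, 6.99% ± 0.660 in WT PD1+Tim3+, 1.80% ± 0.277 in dKO PD1+Tim3- and 2.36% ± 0.00432 in WT PD1+Tim3- (SD, n = 2 each), so they moved with the populations, and their part in the share was not tested. With both left out of the totals the member share was 12.7% in dKO PD1+Tim3+, 11.1% in WT PD1+Tim3+, 13.2% in dKO PD1+Tim3- and 14.3% in WT PD1+Tim3-. In bulk samples, fewer cells of a type and less RNA per cell cannot be told apart.

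Among the 87 members that passed the filter on low counts, the highest library exceeded the lowest by a median of 2.06-fold. That ratio ran from 1.20-fold to 13.6-fold, the last in Rps4l, a single-exon copy with only 2 to 69 counts per library. Of the 87 tested members 69 had their lowest level in a WT PD1+Tim3+ library, 41 in replicate 1 and 28 in replicate 2. WT PD1+Tim3- libraries held the highest level of 65, namely 50 in replicate 1 and 15 in replicate 2. Rpl39l, a paralog of the X-linked Rpl39, did not pass the filter, with 1 to 12 counts per library.

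**Figure D1:**
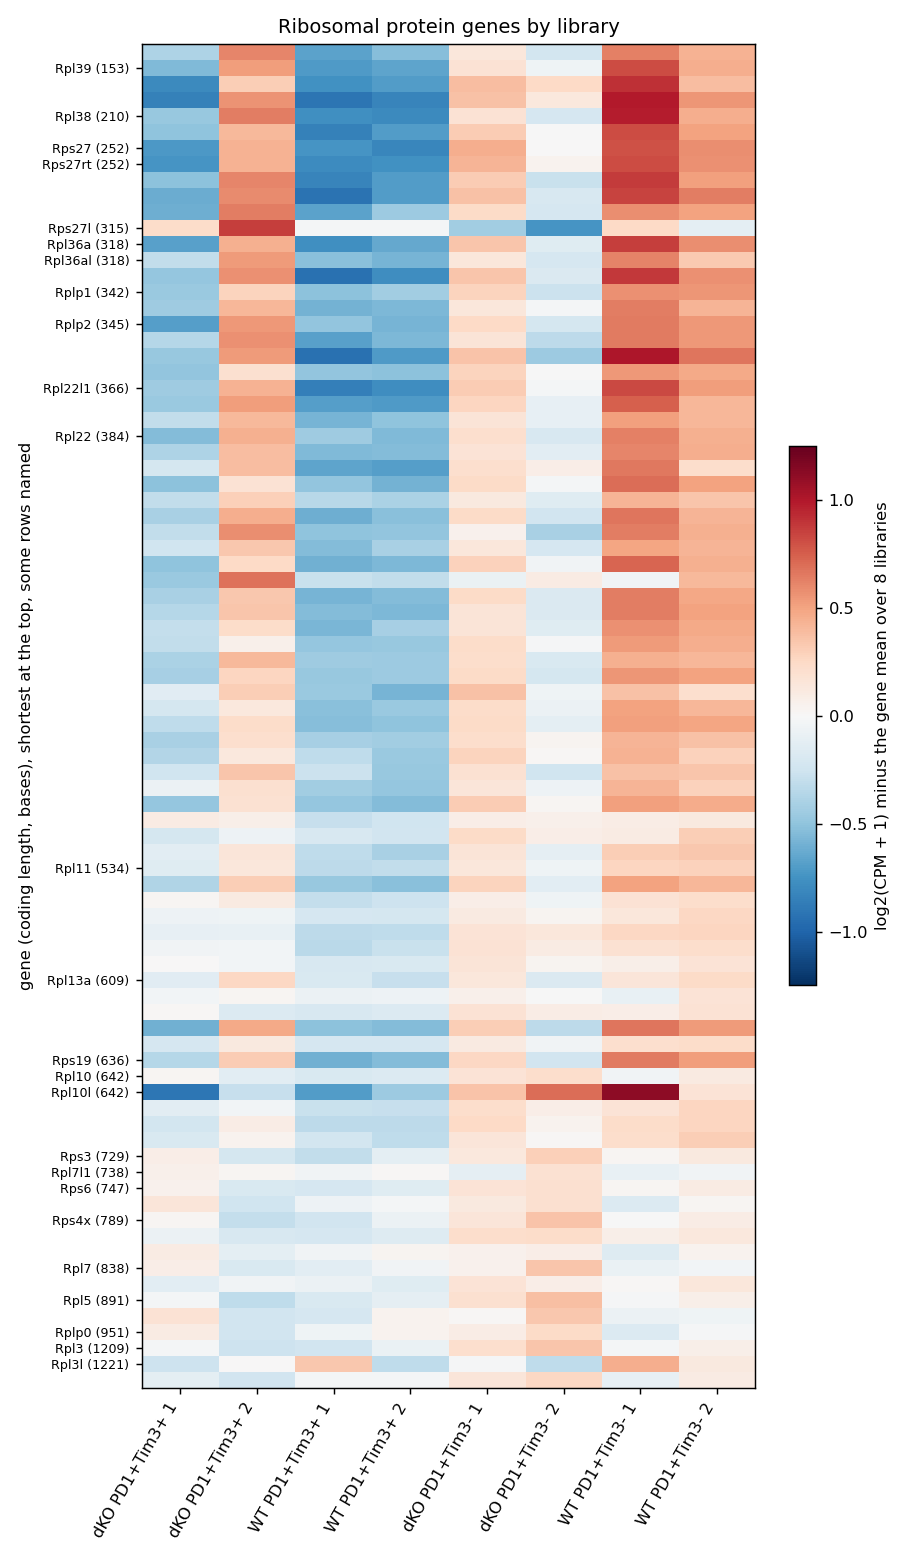
Level of each tested ribosomal protein gene with a coding length (rows, sorted by coding length in bases, shortest at the top) in each of the 8 libraries (columns), as log2(CPM + 1) minus the gene's mean over the 8 libraries, with names beside some of the rows. Most genes with short coding sequences are low in both WT PD1+Tim3+ libraries and high in both WT PD1+Tim3- libraries, the 2 dKO PD1+Tim3+ libraries differ from each other, and most genes at the bottom vary little.

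Levels were compared between genes per length, which assumes that reads spread over the whole transcript. Coverage along transcripts was not checked. The highest mean levels over the 8 libraries, per kilobase of annotated transcript, were 6185 CPM for Rps12, 5709 for Rplp1 and 4767 for Rps18. The lowest among the tested members were 122 CPM per kilobase for Rps27l, 21.2 for Rpl7l1, 8.41 for Rps19bp1, 3.16 for Rps4l and 1.65 for Rpl3l, the striated-muscle paralog of Rpl3. Levels per length thus differed widely among these genes. Retained-intron transcripts in the annotation lengthen some members, so these per-length levels are approximate. Shared sequence adds to this, because 84 of the 88 members share at least 1 stretch of 50 bases with an annotated transcript of another gene, and 42 share 50% or more of such stretches. How reads matching more than 1 gene were counted is not stated in the sources used here.

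In WT cells, the PD1+Tim3+ population had less mRNA of most ribosomal protein genes than the PD1+Tim3- population. In edgeR's quasi-likelihood test 63 of 87 members fell and none rose at an adjusted p under 0.05, beside 8.76% of all 13073 genes tested that fell and 8.25% that rose. The median log2 fold change of the members was -0.93, beside 0.01 for all genes tested. In 76 of 87 members both PD1+Tim3+ libraries lay below both PD1+Tim3- libraries, a pattern that 30.3% of all genes showed. Both subunits took part, with 38 of 53 large-subunit members (median -0.87) and 25 of 33 small-subunit members (median -0.99) called lower. With 2 libraries a group, these calls need the shared estimate of the spread. Without WT PD1+Tim3+ replicate 1 the test called 2 members, without replicate 2 of that group 7, without WT PD1+Tim3- replicate 1 30 and without its replicate 2 54, while the median stayed between -0.97 and -0.87.

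Among the large-subunit members Rpl34 gave the lowest log2 fold change. It had 308 and 361 CPM in WT PD1+Tim3+, against 1187 and 937 CPM in WT PD1+Tim3-. Both PD1+Tim3+ libraries lay far below both PD1+Tim3- libraries, a log2 fold change of -1.67 ± 0.31 (SE, adjusted p 0.0057). Rpl38, which in mice is known for its role in translating Hox mRNAs, had 97.4 and 95.4 CPM in WT PD1+Tim3+, against 330 and 228 CPM in WT PD1+Tim3-. The groups did not overlap, and the log2 fold change was -1.54 ± 0.29 (adjusted p 0.00628). Rpl35a, Rpl37 and Rpl37a fell too, with log2 fold changes of -1.59, -1.56 and -1.47. Rpl38 is annotated at chr11:114668524-114672331, forward strand, in GRCm38.

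Rpl22 and its paralog Rpl22l1, which in mice are known to act differently in T cell development, both fell. Rpl22l1 had 166 and 175 CPM in WT PD1+Tim3+, against 532 and 431 CPM in WT PD1+Tim3-, a log2 fold change of -1.50 ± 0.24 (adjusted p 0.0032). Rpl22 had 230 and 214 CPM in WT PD1+Tim3+, against 486 and 428 CPM in WT PD1+Tim3-, a log2 fold change of -1.04 ± 0.25 (adjusted p 0.0174). Neither gene's groups overlapped. Rpl22l1 shares 65.6% of its 50-base stretches with other annotated genes, so its own level is uncertain.

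The P stalk, which recruits elongation factors to the large subunit, split. The coding lengths of Rplp1, Rplp2 and Rplp0 are 342, 345 and 951 bases, and the trend with coding length is given below. Rplp1 had 1908 and 2007 CPM in WT PD1+Tim3+, against 4036 and 3992 CPM in WT PD1+Tim3-, and Rplp2 had 481 and 452 CPM against 1063 and 987 CPM. Both fell, with log2 fold changes of -1.04 ± 0.23 and -1.14 ± 0.30 (adjusted p 0.0108 and 0.0252), with no overlap between populations. Rplp0, the stalk's base and a common reference gene, had 4670 and 4994 CPM in WT PD1+Tim3+, against 4325 and 4810 CPM in WT PD1+Tim3-, so the populations overlapped, and its fold change of 0.08 ± 0.14 did not pass (adjusted p 0.735).

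Rpl5 and Rpl11, which with 5S rRNA form the particle known to restrain Mdm2 when ribosome assembly is disturbed, also differed in size of change. Their coding lengths are 891 and 534 bases. Rpl11 had 1083 and 1093 CPM in WT PD1+Tim3+, against 1637 and 1657 CPM in WT PD1+Tim3-, a log2 fold change of -0.60 ± 0.13 (adjusted p 0.0116). Rpl5 had 2957 and 3106 CPM in WT PD1+Tim3+, against 3332 and 3541 CPM in WT PD1+Tim3-, and at -0.18 ± 0.14 did not pass (adjusted p 0.395). Both genes were lower in both PD1+Tim3+ libraries, by a clear margin in Rpl11 and a narrow one in Rpl5. Rpl3, Rpl10 and Rpl13a did not pass, at -0.19, -0.22 and -0.44.

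Of the X-linked members, Rpl36a (-1.44, adjusted p 0.00799) and Rpl39, at the peptide exit tunnel (-1.34, adjusted p 0.00779), fell, while Rpl10 and Rps4x (-0.20) did not pass. Rpl36al, the autosomal paralog of Rpl36a, fell with a log2 fold change of -1.04. Rpl7l1, a paralog of Rpl7 that acts in ribosome assembly, had 53.4 and 55.6 CPM in WT PD1+Tim3+, against 51.6 and 53.5 CPM in WT PD1+Tim3-. Its fold change of 0.06 ± 0.11 did not pass, and its sign turned with offsets for coding length.

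Among small-subunit members Rps28 gave the lowest log2 fold change. It had 130 and 138 CPM in WT PD1+Tim3+, against 490 and 360 CPM in WT PD1+Tim3-, a log2 fold change of -1.67 ± 0.34 (adjusted p 0.00771). Rps21 and Rps27 fell with log2 fold changes of -1.45 and -1.47. Rps19, mutated in Diamond-Blackfan anaemia in humans, had 1327 and 1388 CPM in WT PD1+Tim3+, against 3177 and 2902 CPM in WT PD1+Tim3-, a log2 fold change of -1.16 ± 0.21 (adjusted p 0.00543). None of these overlapped between populations. The smallest adjusted p of all members, 0.00246, was that of Rps16, which stood at 918 and 925 CPM in WT PD1+Tim3+, against 1860 and 1768 CPM in WT PD1+Tim3-.

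Rps6, the protein phosphorylated by S6 kinases downstream of mTORC1, had 1199 and 1241 CPM in WT PD1+Tim3+, against 1411 and 1488 CPM in WT PD1+Tim3-. Its libraries did not overlap, but the difference of -0.25 ± 0.12 did not pass (adjusted p 0.198). Rps3, a protein at the mRNA entry site, and Rps4x did not pass either, at -0.28 and -0.20. Rps27rt, a single-exon copy, fell with a log2 fold change of -1.48, but 98.6% of the 50-base stretches of Rps27 also occur in it, so counts of this pair are not separate measurements.

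**Figure D2:**
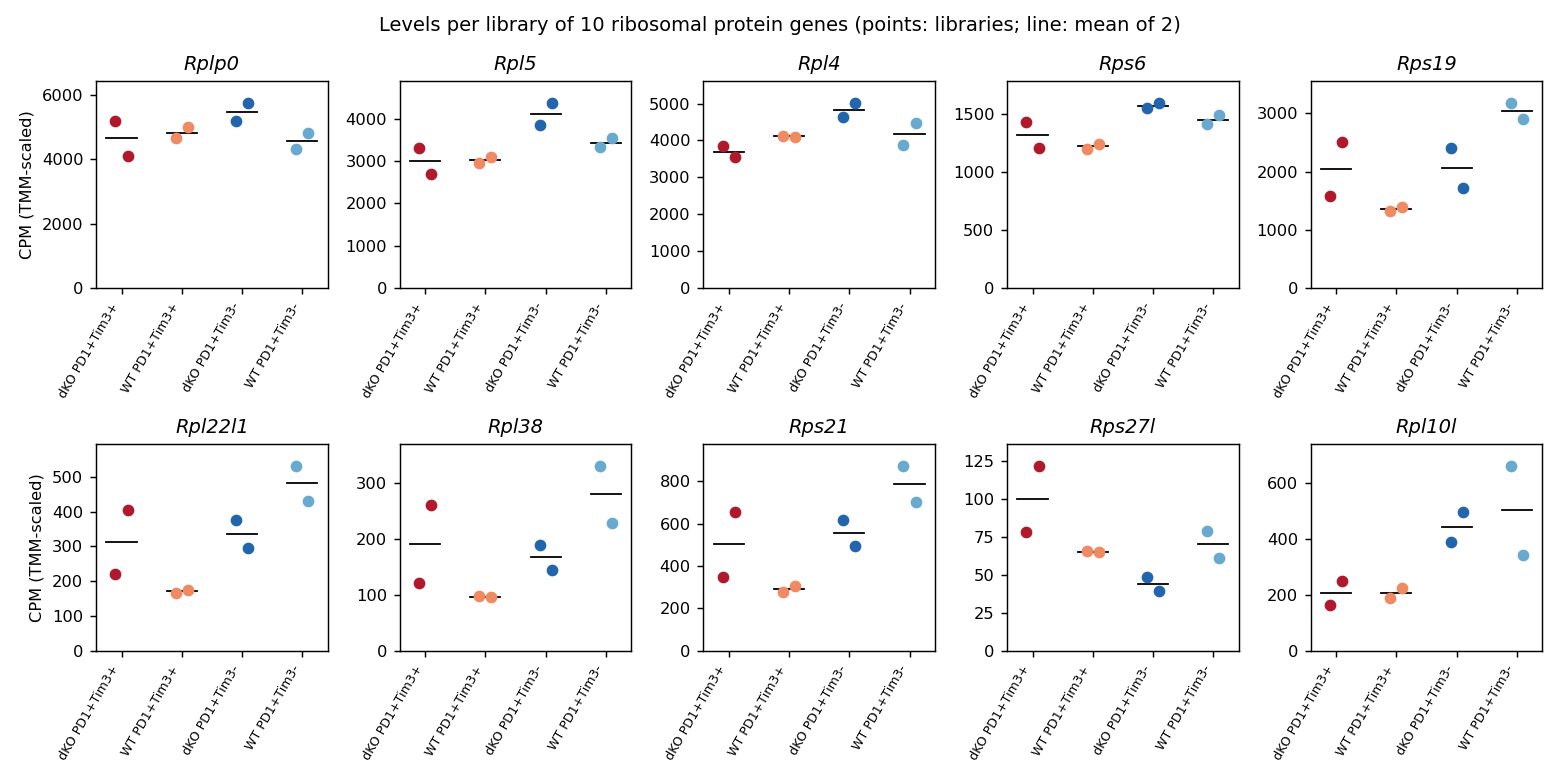
Level of 10 members in each library, in CPM on TMM-scaled totals (vertical axis from 0), with dKO PD1+Tim3+, WT PD1+Tim3+, dKO PD1+Tim3- and WT PD1+Tim3- from left to right, where points are libraries and lines the mean of 2. Rps19, Rpl22l1, Rpl38 and Rps21 are lowest in WT PD1+Tim3+ and spread widely between the 2 dKO PD1+Tim3+ libraries, whereas the means of Rplp0, Rpl5, Rpl4 and Rps6 are highest in dKO PD1+Tim3- and Rps27l is highest in dKO PD1+Tim3+.

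In the libraries labelled dKO, the same comparison of populations gave few calls. Of 87 members 1 rose and 1 fell, beside 5.21% of all genes tested that rose and 4.72% that fell, and the median of the members was -0.08. Rps27l, a paralog of Rps27 that is a p53 target, had 78.2 and 122 CPM in dKO PD1+Tim3+, against 48.9 and 39.4 CPM in dKO PD1+Tim3-. Both PD1+Tim3+ libraries lay above both others, and it rose by 1.15 ± 0.21 on the log2 scale (adjusted p 0.00878). The call was lost without either dKO PD1+Tim3- library (adjusted p 0.0828 and 0.0784). Rps27l is annotated at chr9:66946086-66949516, forward strand, in GRCm38. In WT it had 65.5 and 65.3 CPM in PD1+Tim3+, against 78.9 and 61.2 CPM in PD1+Tim3-, and at -0.11 ± 0.19 did not pass.

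Rpl10l, an intronless paralog of Rpl10 known for its role in the male germline, fell in both genotypes. It had 162 and 248 CPM in dKO PD1+Tim3+, against 388 and 494 CPM in dKO PD1+Tim3-, a log2 fold change of -1.10 ± 0.28 (adjusted p 0.0343). In WT it had 186 and 222 CPM in PD1+Tim3+, against 660 and 342 CPM in PD1+Tim3-, a log2 fold change of -1.30 ± 0.28 (adjusted p 0.0101). The populations did not overlap in either genotype. With single libraries left out, its call in dKO was kept without dKO PD1+Tim3+ replicate 2 and without either WT PD1+Tim3- library and was lost without each of the others, and its adjusted p reached 0.194 without dKO PD1+Tim3- replicate 2. Of its 50-base stretches 7.6% occur in another annotated transcript, and Rpl10 itself, at 1717 to 2274 CPM, did not pass in either genotype.

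Members with long coding sequences had the smallest adjusted p among those that did not pass in dKO cells. Rpl5 had 3311 and 2705 CPM in dKO PD1+Tim3+, against 3863 and 4368 CPM in dKO PD1+Tim3-, a difference of -0.45 ± 0.14 (adjusted p 0.0603). Rpl3, which helps form the peptidyl transferase centre, and Rpl4, which lines the exit tunnel, gave -0.42 and -0.39 (adjusted p 0.074 and 0.081). The libraries of these genes did not overlap. Both PD1+Tim3+ libraries lay below both others in 17 of 87 members and in 3228 of all 13073 genes tested, so this was no more common among members. Rpl38, by contrast, had 120 and 260 CPM in dKO PD1+Tim3+, against 189 and 144 CPM in dKO PD1+Tim3-, with its dKO PD1+Tim3+ libraries on either side of the others (0.18 ± 0.29, adjusted p 0.779). Rps4l and Rpl27 had the next smallest p among positive values, at 1.72 (adjusted p 0.116) and 0.36 (adjusted p 0.409), and did not pass. The count in dKO cells rested on single libraries, being 6 without dKO PD1+Tim3+ replicate 1, 19 without its replicate 2, 0 without dKO PD1+Tim3- replicate 1 and 1 without its replicate 2, the last a different member. It was 1 without either WT PD1+Tim3+ library.

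In PD1+Tim3+ cells, no member passed between the libraries labelled dKO and WT, beside 0.26% of all genes higher and 0.367% lower. The smallest adjusted p was 0.129, for Rps15a, which had 765 and 1165 CPM in dKO PD1+Tim3+, against 563 and 551 CPM in WT PD1+Tim3+, a log2 fold change of 0.79 ± 0.20. At an unadjusted p under 0.05 edgeR gave 44 members higher and 0 lower, beside 7.1% of all genes higher and 4.91% lower. DESeq2 called 2 members and limma-voom 0, and edgeR without the low-count filter called 43. The shares of all genes called in those fits are not given here. The median of the members was 0.43, and in 56 of 87 both dKO libraries lay above both WT libraries, as in 20.7% of all genes. Rpl22l1 gave 0.87 (adjusted p 0.161). Among negative values Rps4l, Rpl4 and Rplp0 had the smallest p, at -0.60, -0.15 and -0.05.

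The 2 libraries of dKO PD1+Tim3+ stood apart in most members. Measured as log2(CPM + 1) minus each gene's mean over the 8 libraries, the median of the members was -0.31 and 0.24 in dKO PD1+Tim3+, -0.47 and -0.46 in WT PD1+Tim3+, 0.19 and -0.04 in dKO PD1+Tim3- and 0.50 and 0.39 in WT PD1+Tim3-. Rps28 shows the gap, with 136 CPM in replicate 1 and 363 CPM in replicate 2 of dKO PD1+Tim3+. Without replicate 1 of that group 50 members were called in PD1+Tim3+ cells at a median of 0.72, and without replicate 2 none was, at a median of 0.15. The erythroid markers above were higher in replicate 1 than in replicate 2, and their part was not tested.

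In PD1+Tim3- cells no member passed either, beside 0.0153% of all genes higher and 0.0306% lower, and the median pointed the other way, at -0.37 for dKO against WT. At an unadjusted p under 0.05 edgeR gave 20 members lower and 0 higher, beside 4.27% of all genes lower and 4% higher. DESeq2 and limma-voom called 0, and edgeR without the low-count filter called 33, with no share of all genes given here for those fits. In 60 of 87 members both dKO libraries lay below both WT libraries, as in 21% of all genes. The smallest adjusted p was 0.481, for Rps27l, which had 48.9 and 39.4 CPM in dKO PD1+Tim3-, against 78.9 and 61.2 CPM in WT PD1+Tim3-, a difference of -0.64 ± 0.21. Rpl27 and Rps15 followed among negative values, at -0.70 and -0.51, and Rpl3, Rpl5 and Rpl7 had the smallest p among positive values, each at 0.26. The group labelled dKO PD1+Tim3- holds the shallowest library, replicate 2, with 1944999 counts.

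The difference between the population contrasts of the genotypes, tested for each gene as an interaction, passed for 0 members in edgeR, and for 0% of all genes in either direction. At an unadjusted p under 0.05, 55 members had a higher population difference in dKO than in WT and 0 a lower one, beside 5.87% of all genes higher and 4.22% lower. DESeq2 called 28 members and limma-voom 0, and edgeR without the low-count filter called 50. Shares of all genes called in those fits are not given here, so these counts do not set the members apart. Without dKO PD1+Tim3+ replicate 1 edgeR called 51. The median of the members was 0.82, and the smallest adjusted p was 0.202, for Rps27l at 1.25 ± 0.28. Rpl22l1 followed at 1.39, and Rpl4, Rplp0 and Rpl5 had the smallest p among negative values, at -0.36, -0.31 and -0.27. In edgeR the fall in WT cells is therefore not shown to differ from the change in dKO cells. All 4 contrasts share groups with one another, so their values are given side by side and their likeness is no result.

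Fold changes of the members were ranked in part by the length of the coding sequence. Coding length is that of the annotated transcript with the longest coding sequence, known for 84 of the 87 tested members. Across these 84 members, which share the 8 libraries, the Spearman rank correlation of log2 fold change with coding length was 0.82 for PD1+Tim3+ against PD1+Tim3- in WT and -0.44 in dKO. It was -0.90 for dKO against WT in PD1+Tim3+ cells, and for the same contrast in PD1+Tim3- cells 0.79. Across 11231 other genes it was -0.15, -0.22, -0.11 and -0.02 in the same contrasts. These genes reach far longer coding sequences than the members, whose longest is 1257 bases, so the correlations cover unlike ranges. From length bins around 215 bases to those around 693 bases, the median of other genes went from -0.18 to 0.17 and from 0.34 to 0.11 in the first 2 contrasts. In the last 2 it went from 0.32 to 0.01 and from -0.25 to 0.03, each time in the members' direction. With transcript length in place of coding length, the correlation was weaker across the 87 members, at 0.46, -0.18, -0.51 and 0.44. With the members' average log2 CPM it was 0.51, -0.39, -0.54 and 0.61. Whether length or level orders the changes was not tested. In WT cells the median log2 fold change was -1.41 for members with coding sequences under 350 bases, -0.96 for those of 350 to under 600 bases and -0.23 for those of 600 bases or more, where other genes of the same classes had -0.15, 0.11 and 0.04. Called lower were 18 of 19, 37 of 39 and 6 of 26 members of the 3 classes, and 78 of 347, 98 of 1076 and 752 of 9808 other genes. By transcript length, other genes under 600 bases moved in the same direction as members, except for the populations in dKO. There their median was 0.13 and that of members -0.08. In WT the 22 members of that class had a median of -1.27, with 21 called lower, and the 305 other genes -0.44, with 82 called lower. For dKO against WT in PD1+Tim3+ cells these medians were 0.70 and 0.33.

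**Figure D3:**
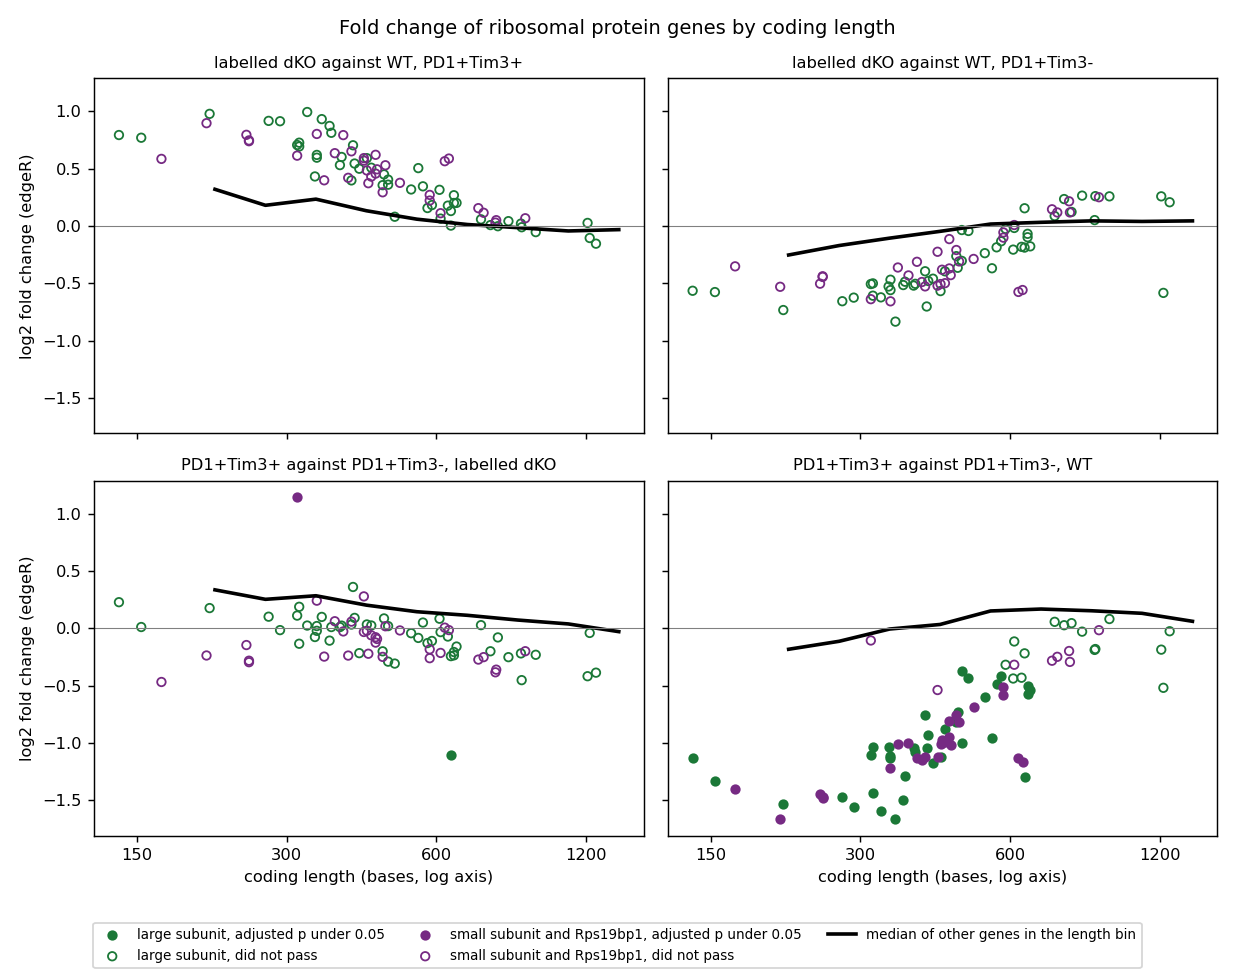
Log2 fold change of each ribosomal protein gene (vertical axis, edgeR) against its coding length in bases (horizontal log axis), in 4 panels, one per contrast, with filled points for adjusted p under 0.05 and a black line for the median of other genes by length. The line leaves out the shortest length bins, which hold few other genes. Changes are largest among short members and nearer to 0 from 600 bases on for PD1+Tim3+ against PD1+Tim3- in WT, where short members are negative (Spearman 0.82), and for dKO against WT in PD1+Tim3+ cells, where they are positive (Spearman -0.90), while long members are the lower ones for PD1+Tim3+ against PD1+Tim3- in dKO (Spearman -0.44).

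A few members stood off this trend. Rps19 and Rpl10l, with annotated coding lengths of 636 and 642 bases, had log2 fold changes of -1.16 and -1.30 in WT and passed, beside a class median of -0.23. These lengths are those of the longest annotated coding sequence, and a gene whose main transcript codes for less could fall in another class. Rps27l, with 315 bases, did not pass in WT, beside 18 of 19 members of its class that fell. In dKO against WT the class medians were 0.75, 0.48 and 0.06 in the PD1+Tim3+ population; in the PD1+Tim3- population they were -0.56, -0.37 and 0.10, from the shortest class to the longest. For PD1+Tim3+ against PD1+Tim3- in dKO they were 0.01, -0.03 and -0.22. There other genes of the same classes had 0.29, 0.19 and -0.005, so members lay below other genes in each class. For dKO against WT, other genes had 0.24, 0.10 and -0.02 in PD1+Tim3+ cells and -0.18, -0.01 and 0.01 in PD1+Tim3- cells.

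The libraries of a group differed by length too. Members with coding sequences under 350 bases had a median deviation from the mean of the 8 libraries of -0.52 and 0.54 in dKO PD1+Tim3+, -0.73 and -0.66 in WT PD1+Tim3+, 0.28 and -0.20 in dKO PD1+Tim3- and 0.81 and 0.52 in WT PD1+Tim3-. The 2 libraries of dKO PD1+Tim3+ span most of the range of the groups. Other genes of that class had 0.06 and 0.24 in dKO PD1+Tim3+, -0.10 and -0.07 in WT PD1+Tim3+, -0.05 and -0.21 in dKO PD1+Tim3- and 0.09 and 0.08 in WT PD1+Tim3-. Members of 600 bases or more had -0.03 and -0.15 in dKO PD1+Tim3+, -0.20 and -0.15 in WT PD1+Tim3+, 0.15 and 0.20 in dKO PD1+Tim3- and 0.02 and 0.12 in WT PD1+Tim3-. Fitted with offsets for the length trend of all genes with a length in each library, members included, 68 members fell in WT with coding length and 58 with transcript length. The median in WT was then -0.64 with transcript length, nearer to 0 than without offsets. The part that fragment size, priming or alignment of short transcripts had in the trend was not tested.

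**Figure D4:**
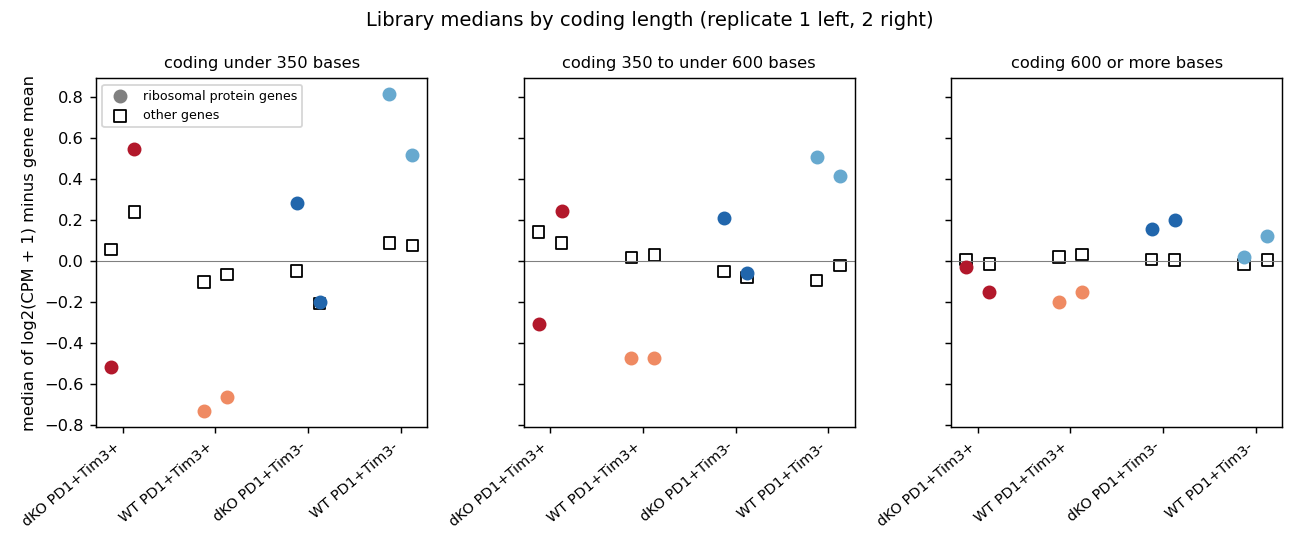
Median deviation of log2(CPM + 1) from the gene mean (vertical axis) per library, for members (filled circles) and other genes (open squares) with coding sequences under 350 bases, of 350 to under 600 bases and of 600 bases or more (3 panels), with the 4 groups from left to right. In the shortest class the members' medians run from -0.73 to 0.81 and those of other genes from -0.21 to 0.24.

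Members with and without such a pyrimidine run had similar medians. The 34 tested members with a run of 5 or more had a median of -0.91 in WT PD1+Tim3+ against PD1+Tim3-, and the 32 with a shorter run -0.98. Called lower were 26 and 21 of them. Rps28, whose window holds a run of 4, fell as far as Rpl34, and Rps6, with a run of 10, did not pass. These are descriptions of annotated windows only.

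Genes that work with the ribosome moved in part alongside. Among ribosomal proteins outside the symbol rule, Fau, made as a fusion with a ubiquitin-like sequence, fell in WT PD1+Tim3+ against PD1+Tim3- (-0.72, adjusted p 0.0186). Rpsa and Rack1 did not pass. All 6 snoRNA host transcripts fell in that contrast, beside 8.76% of all genes, among them Gas5 and Snhg5, whose introns hold small nucleolar RNAs that guide rRNA modification. Gas5 had 108 and 107 CPM in WT PD1+Tim3+, against 217 and 183 CPM in WT PD1+Tim3-, a log2 fold change of -0.89 ± 0.12 (adjusted p 0.0014), and Snhg5 gave -1.27. In dKO cells Snhg5 alone of these 6 fell (-1.10, adjusted p 0.0214). Gas5 was the one gene of the lists that passed between genotypes, at 158 and 176 CPM in dKO PD1+Tim3+, against 108 and 107 CPM in WT PD1+Tim3+, a log2 fold change of 0.63 ± 0.12 (adjusted p 0.0414). That call was lost without either WT PD1+Tim3+ library (adjusted p 0.415 and 0.468), without dKO PD1+Tim3+ replicate 2 (0.141) and without either dKO PD1+Tim3- library (0.0909 and 0.0944).

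Of 18 ribosome biogenesis genes, 11 fell in WT PD1+Tim3+ against PD1+Tim3-, beside 8.76% of all genes, and 9 fell in dKO, beside 4.72% of all genes. None rose in either genotype, and the median was -0.42 in each, where the ribosomal protein genes had -0.93 and -0.08. Myc, the transcription factor that drives ribosome production, had 55.3 and 56.5 CPM in dKO PD1+Tim3+, against 101.7 and 90.8 CPM in dKO PD1+Tim3-, a log2 fold change of -0.79 ± 0.12 (adjusted p 0.00308). In WT it had 57.6 and 61.5 CPM in PD1+Tim3+, against 73.9 and 86.7 CPM in PD1+Tim3-, a log2 fold change of -0.42 ± 0.11 (adjusted p 0.0253). Ncl, the nucleolar protein nucleolin, fell in WT, at -0.73 (adjusted p 0.00559), and gave -0.45 in dKO (adjusted p 0.0619). Nolc1 fell in both, at -0.45 in dKO (adjusted p 0.0404) and -0.72 in WT (adjusted p 0.00337). Dkc1, the pseudouridine synthase of box H/ACA particles, fell in both, at -1.06 in dKO (adjusted p 0.0386) and -0.89 in WT (adjusted p 0.0496).

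Few translation factors passed the test. Of 20, 1 fell in WT, Eef1b2 at -0.39, beside 8.76% of all genes, and 3 in dKO, beside 4.72%, namely Eef1a1, Eef1b2 and Eif4a2 at -0.46, -0.44 and -0.44, with none higher and medians of -0.09 and -0.20. Of 12 regulators of mTORC1 and TOP mRNAs none passed in WT. In dKO Eif4ebp1, which encodes the repressor 4E-BP1, rose, with 31.1 and 31.8 CPM in PD1+Tim3+, against 18.5 and 20.5 CPM in PD1+Tim3- (0.72 ± 0.16, adjusted p 0.0193). Apart from Gas5, no gene of these 5 lists passed between genotypes in either population. Apart from Gas5 in WT, every called gene named here from these lists lost its call without at least 1 library, Myc in dKO without dKO PD1+Tim3- replicate 1 (adjusted p 0.0812) and Eif4ebp1 without either dKO PD1+Tim3- library (0.196 and 0.0711).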

How the data were processed

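Counts per gene symbol for the 8 libraries were deposited by the authors as 1 table of whole numbers, with 24976 genes. Its last line, which names no gene and equals the column totals, was left out. Per the submitters' processing notes, genome build mm10, cutadapt 1.18 and Bowtie2 2.2.5 were used. The counting tool, annotation and strand setting are not stated in the sources used here. PD1+Tim3- columns name PD1 alone, and were assigned because Tim3+ columns are named separately. Chi-square per gene between the libraries of a group was 3.10 to 16.1, so each was kept as a library of its own.

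The main test was edgeR's quasi-likelihood test (version 4.0.16, run in R 4.3.3). Libraries were scaled by TMM, and the default low-count filter kept 13073 genes, 87 of them members. The 4 groups were fitted together over the 8 libraries, leaving 4 residual degrees of freedom and assuming that all groups vary alike. Benjamini-Hochberg adjustment ran over all genes tested, and genes with an adjusted p under 0.05 were called. A standard error is the log2 fold change divided by the root of the F statistic. The smallest p that an exact permutation test of 2 against 2 libraries allows is 0.333, so none was run. Alternatives were RLE size factors, scaling without the members, DESeq2 1.42.0, limma-voom (limma 3.58.1), no low-count filter, offsets for transcript length or, chosen after seeing the data, coding length, each library left out, and a replicate block. Counts of members called in these alternatives are given without the share of all genes called, so they do not set the members apart from other genes.

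The members and lists were chosen with earlier results of these data known. Named were a fixed list of stalk proteins, the 5S complex, X-linked members, paralog pairs and much studied members. To these were added the called members of a contrast (the 10 with the largest change where more passed), the 3 with the smallest p in each direction, and the 5 highest and 5 lowest per length. Rpl15 was named after its values were seen. Some genes that these rules name are not reported here. Lists were Translation factors, Ribosome biogenesis, mTORC1 and TOP mRNA regulators, snoRNA host transcripts and Ribosomal proteins outside the symbol rule. Lengths and gene coordinates are from the GENCODE annotation of GRCm38, and start windows from RefSeq (GRCm38.p6).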

Additional observations from a re-analysis of the deposited data

Results flagged for a closer look

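The median level of ribosomal protein genes was ordered oppositely by genotype label in the sorted populations, while edgeR called 0 members between genotypes in either. As the median over members of log2(CPM + 1) minus each gene's mean, both libraries of dKO PD1+Tim3+ (-0.31 and 0.24) lay above both of WT PD1+Tim3+ (-0.47 and -0.46). Both libraries of dKO PD1+Tim3- (0.19 and -0.04) lay below both of WT PD1+Tim3- (0.50 and 0.39). The median over members of the difference between the population contrasts, dKO minus WT, was 0.82 on the log2 scale, and this difference of medians was not tested. Without dKO PD1+Tim3+ replicate 2 the median for dKO against WT in PD1+Tim3+ cells was 0.15, against 0.43 with all libraries. Length offsets brought the genotype medians nearer to 0 and kept their signs. In PD1+Tim3+ cells the median was 0.27 with transcript length and 0.26 with coding length. In PD1+Tim3- cells it was -0.18 and -0.23, against -0.37 without offsets. Gene by gene edgeR's interaction test called 0 members, with 55 at an unadjusted p under 0.05, and DESeq2 called 28.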

How the results depend on the processing

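For PD1+Tim3+ against PD1+Tim3- in WT, where edgeR called 63 members, the count was 64 with RLE factors, 64 with scaling without the members, 61 with DESeq2, 67 with limma-voom, 66 without the low-count filter, 58 with transcript-length offsets and 68 with coding-length offsets. Leaving out single libraries gave 2 to 66. Without the filter the count was 33 for dKO against WT in PD1+Tim3- cells, 43 in PD1+Tim3+ cells, 8 for the populations in dKO and 50 for the interaction. DESeq2 called 2 members for dKO against WT in PD1+Tim3+ cells and 28 for the interaction, and limma-voom 6 for the populations in dKO. Transcript-length offsets gave 11 calls for the populations in dKO and medians of -0.64 for the populations in WT and 0.43 for the interaction. Signs turned for Rpl5 in dKO against WT in PD1+Tim3+ cells (0.034), for Rplp0 (-0.0235) and Rps27l (0.21) in WT and for Rpl38 in dKO (-0.0789). Coding-length offsets gave 8 calls for the populations in dKO and an interaction median of 0.55. Signs turned for Rpl5 (0.0045) in PD1+Tim3+ cells, Rplp0 (-0.0348), Rpl7l1 (-0.0598) and Rps27l (0.0708) in WT and Rpl38 (-0.22) in dKO. The cause was not tested. The member share was 12.7% in dKO PD1+Tim3+ and 11.1% in WT PD1+Tim3+ without ribosomal RNA, and 11.2% in WT PD1+Tim3+ with the other 4 ribosomal proteins.

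Leaving out single libraries gave 0 to 50 calls for dKO against WT in PD1+Tim3+ cells, with medians of 0.15 to 0.72. For the populations in dKO it gave 0 to 19 calls and medians of -0.35 to 0.15, and for the interaction 0 to 51 calls and medians of 0.48 to 1.07. Ranges that crossed 0 were -0.23 to 0.11 for Rplp0 and -0.16 to 0.13 for Rpl5 in PD1+Tim3+ cells, -0.27 to 0.10 for Rps27l in WT, and -0.15 to 0.74 for Rpl27 and -0.49 to 0.63 for Rpl38 in dKO. With the replicate block, 48 of the 63 members were called in WT, 2 in dKO, and 0 in the other contrasts. Over all genes tested, deviations of same-numbered libraries correlated at -0.23 to 0.04 over the 6 pairs of groups, and no pair was above 0.1. The labels do not say whether equal numbers mark the same mouse, and low correlations cannot exclude it, so the pairing is unknown. Over the members alone these correlations ran from -0.66 to 0.38. Over the named genes and all settings, 1307 fold changes kept direction and side of the threshold, 69 passed only in the alternative, 129 no longer passed and 15 changed sign.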
